A study of Mus musculus with 4 samples.

Results

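The genes of the chaperonin TRiC/CCT were followed in Ribo-seq data of mouse spermatocytes. They were taken by symbol from the deposited table of 11598 genes, and all 9 named genes were found there: *Tcp1*, *Cct2*, *Cct3*, *Cct4*, *Cct5*, *Cct6a*, *Cct6b*, *Cct7* and *Cct8*. Ribosome-protected fragments (RPFs), which are mRNA stretches protected from nuclease by ribosomes, were read from leptotene and zygotene cells sorted by FACS at postnatal day 12. There were 2 control libraries, which the labels call wild type, and 2 libraries of *Eef1g*-cKO mice, in which a *Stra8*-GFPCre transgene removes exons of *Eef1g* from male germ cells. The reads counted on genes numbered 2479504 and 1384282 in control replicates 1 and 2, and 223906 and 407979 in *Eef1g*-cKO replicates 1 and 2. Levels are in FPKM, fragments per kilobase of gene length and 1000000 counted reads. No RNA-seq library was part of the comparison, so a change in mRNA and a change in its translation cannot be told apart.

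TRiC/CCT is a cytosolic folding machine built from a pair of stacked rings, and each ring holds 1 copy of each of 8 different subunits. Its best known clients are actin and tubulin, which reach it with the help of prefoldin and of phosducin-like proteins, and it also folds many WD40 repeat proteins. The *Tcp1* gene encodes subunit alpha, *Cct2* beta, *Cct3* gamma, *Cct4* delta, *Cct5* epsilon, *Cct7* eta and *Cct8* theta. The zeta position has 2 genes, the widely expressed *Cct6a* and its paralog *Cct6b*, which is known from testis. Because the ring uses its subunits in equal numbers, their levels per length can be set side by side within a library.

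The labels were checked first. For *Eef1g*, control gave 107 and 58 reads, against 0 and 4 in *Eef1g*-cKO (27.6, 26.8, 0 and 6.26 FPKM), and both *Eef1g*-cKO libraries lay below both control libraries. With the reads of each genotype pooled, its level in *Eef1g*-cKO was 0.148 times that in control (exact 95% interval 0.0399 to 0.387). Intervals here cover counting error only. Of 10 markers of leptotene and zygotene spermatocytes 9 were in the table, with summed levels of 2056 and 1674 FPKM in control and 4604 and 4240 FPKM in *Eef1g*-cKO. *Sycp3* was the most abundant of them, with 811 and 716 FPKM in control and 2217 and 1778 FPKM in *Eef1g*-cKO. Markers of the sorted stage were thus present in every library, with higher sums in *Eef1g*-cKO.

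Markers of other cells were not evenly spread. All 9 spermatogonial markers were in the table, and their sum was 1643 and 1867 FPKM in control against 352 and 314 FPKM in *Eef1g*-cKO. The most abundant was *Uchl1*, at 1011, 1138, 140 and 120 FPKM in the same order. For Sertoli cells 7 of 8 markers were in the table, with sums of 559, 136, 134 and 85.5 FPKM, led by *Clu* at 458, 96.3, 91.4 and 65.1 FPKM, with *Gata4* at 0 in both *Eef1g*-cKO libraries. Control replicate 1 therefore stood apart in Sertoli markers. Markers of pachytene spermatocytes and spermatids, 6 of 10 in the table, summed to 423, 367, 1483 and 1397 FPKM, nearly all of it from *Hist1h1t* (388, 301, 1458 and 1354 FPKM), with *Prm2* at 0 in both *Eef1g*-cKO libraries. The median log2 fold change of these 6 was −1.20, with values below 0 for *Piwil1*, *Spaca1*, *Tnp1* and *Prm2*, of which the last 3 overlapped between genotypes. Peritubular markers (4 of 4) summed to 62.9, 60, 31.5 and 25.5 FPKM, led by *Acta2* at 28.7, 16.9, 5.21 and 16.2 FPKM. Leydig markers (3 of 5) summed to 3.10, 5.82, 2.23 and 1.22 FPKM, led by *Cyp11a1* at 0, 4.89, 0 and 0 FPKM, with *Cyp11a1* and *Hsd3b1* at 0 in *Eef1g*-cKO. None of the 3 macrophage markers was in the table. In such bulk samples fewer cells of a type and less RNA per cell cannot be told apart.

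The 8 ring subunits had high RPF levels. By mean FPKM over the 4 libraries they lay between position 108 (*Cct3*) and position 230 (*Cct6a*) of the 10475 tested genes, whose mean reached 1 FPKM or more. *Cct6b* lay at position 9047. The 8 genes together took 14007 and 9508 reads in control, against 1359 and 2493 in *Eef1g*-cKO, so the counting error of a single subunit is larger in *Eef1g*-cKO.

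The summed level of the complex overlapped between genotypes only at the deposited scaling. For the 8 genes it was 2689 and 3273 FPKM in control, against 2867 and 2865 FPKM in *Eef1g*-cKO. The *Eef1g*-cKO libraries lay between the control libraries. With libraries centred on the median of all tested genes the sums were 2500 and 3035 in control, against 3066 and 3107 in *Eef1g*-cKO, both above. With FPKM rescaled to reads on protein-coding genes they were 3435 and 3794 in control, against 3331 and 3393 in *Eef1g*-cKO, both below. The log2 ratio of the means, 2981 ± 413 FPKM for control and 2866 ± 0.980 FPKM for *Eef1g*-cKO (SD, n = 2 each), was −0.06. With *Cct6b* added the sums were 2690, 3274, 2872 and 2867 FPKM. As reads per 1000000 counted reads, the 8 genes took 5649, 6869, 6070 and 6111. The sign of this ratio depended on the scaling and on 1 library: it was 0.16 with centred libraries, −0.10 with protein-coding reads, and 0.0923 without control replicate 2. With 2 libraries against 2, an exact permutation test (two-sided) cannot go below p = 0.33, and no test of another kind was made of the sum.

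**Figure D1:**
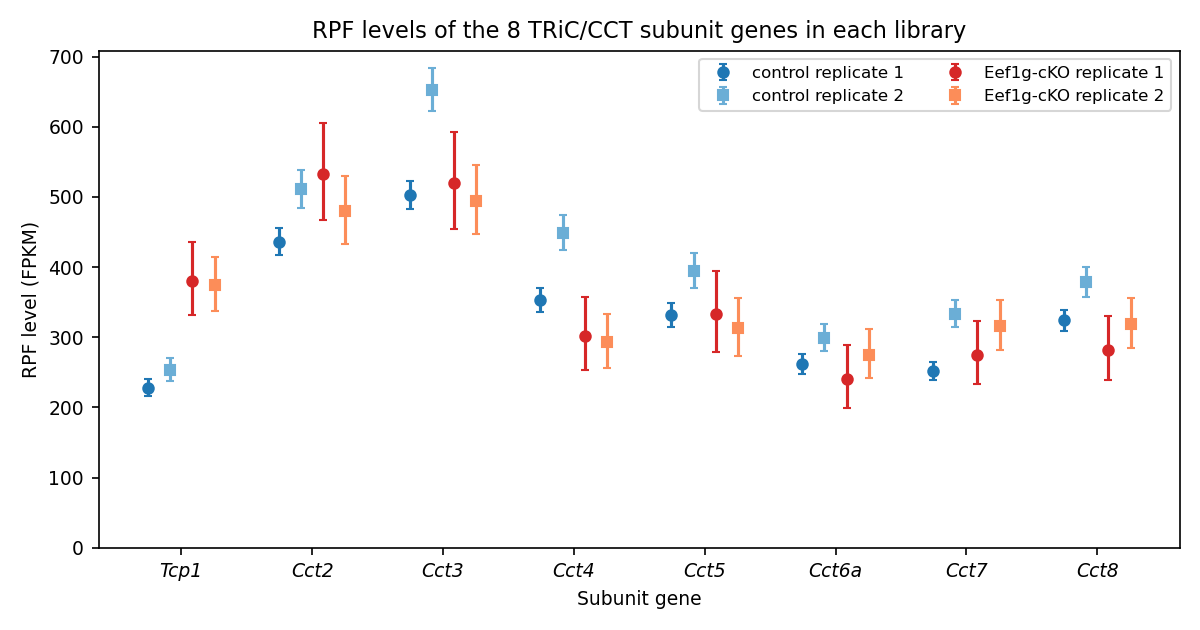
RPF level in FPKM (vertical axis) of the 8 ring subunit genes (horizontal axis) in each of the 4 libraries, with exact 95% Poisson intervals of the reads as error bars. *Tcp1* is the gene whose *Eef1g*-cKO libraries (381 and 375 FPKM) lie clearly above its control libraries (228 and 254 FPKM).

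Between genotypes, no member was called. The main test was limma on log2(FPKM + 1), with Benjamini-Hochberg adjustment over the 10475 tested genes and a call at an adjusted p under 0.05 with an absolute log2 fold change above 1. All 9 members were tested, and 0 were increased and 0 decreased, against 2.87% and 4.97% of all tested genes. At an unadjusted p under 0.05 with the same fold, 0 members were called in limma in either direction, against 7.32% increased and 16.3% decreased over all genes. The count tests on reads, edgeR and DESeq2, also called 0 members by adjusted p and by unadjusted p, but *Cct6b* was too low to be tested in edgeR and had no adjusted p in DESeq2. Over all genes edgeR called 8.75% increased and 11.2% decreased by adjusted p, and DESeq2 4.35% and 3.96%. The deleted gene *Eef1g* itself was not called by adjusted p in limma (adjusted p = 0.0731, log2 fold change −3.39). Its adjusted p was 0.00780 in edgeR and 0.0400 in DESeq2. The median log2 fold change of the 9 members was −0.12, and that of the 8 ring subunits −0.14, beside −0.23 over all tested genes. Centring the libraries shifted the latter median to −0.02 and turned the median of the 8 subunits to 0.07, so fold changes are also given relative to the median of all tested genes. Relative to it 7 of the 8 lay above, all but *Cct4*, but 3 of 8 did so among genes with a mean of 5 FPKM or more.

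*Tcp1*, which encodes subunit alpha and gave the complex its older name, stood apart from the other 7. Its level was 228 and 254 FPKM in control (1413 and 878 reads) and 381 and 375 FPKM in *Eef1g*-cKO (213 and 382 reads). Both *Eef1g*-cKO libraries exceeded both control libraries, and replicates of each genotype were close. Leptotene and zygotene markers (2056 and 1674 against 4604 and 4240 FPKM) went in the same direction and spermatogonial markers (1643 and 1867 against 352 and 314 FPKM) in the opposite one, and their part in the result was not tested. Its means were 241 ± 18.2 FPKM in control and 378 ± 4.24 FPKM in *Eef1g*-cKO (SD, n = 2 each). The log2 fold change was 0.65 (standard error 0.19), or 0.88 above the median of all tested genes. It missed the adjusted threshold in limma (adjusted p = 0.0910) and was under the fold threshold. In edgeR's quasi-likelihood test on reads the adjusted p was 0.0149 at a log2 fold change of 0.73, and in DESeq2 it was 0.0168 at 0.71. Over all 14 alternatives the adjusted p ran from 0.0149 to 0.298 and the log2 fold change from 0.57 to 0.86, and *Tcp1* had the highest log2 fold change of the 8 subunits in all 14.

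*Cct4*, the gene of subunit delta, had the lowest fold change of the members. It was at 353 and 449 FPKM in control and at 302 and 293 FPKM in *Eef1g*-cKO. Both *Eef1g*-cKO libraries lay below both control libraries. The log2 fold change was −0.42 (standard error 0.22, limma adjusted p = 0.245), or −0.19 against the median of all tested genes, and did not pass. At the deposited scaling *Cct8*, the gene of subunit theta, also had both *Eef1g*-cKO libraries (282 and 319 FPKM) below both control libraries (324 and 378 FPKM). The nearest pair was close together. The log2 fold change of *Cct8* was −0.22 (standard error 0.21, limma adjusted p = 0.498).

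At the deposited scaling the remaining 5 ring subunits overlapped between genotypes. *Cct3*, for subunit gamma, was at 502 and 653 FPKM in control and 520 and 495 FPKM in *Eef1g*-cKO. *Cct2*, for subunit beta, was at 436 and 511 FPKM in control and 533 and 480 FPKM in *Eef1g*-cKO. Control replicate 2 was the high library for *Cct3*, and *Eef1g*-cKO replicate 1 for *Cct2*. *Cct5*, for subunit epsilon, was at 332 and 395 FPKM in control and 333 and 313 FPKM in *Eef1g*-cKO. *Cct7*, for subunit eta, was at 251 and 334 FPKM in control and 275 and 316 FPKM in *Eef1g*-cKO. Log2 fold changes of these 5, with *Cct6a* described below, ran from −0.17 to 0.10. In all, at this scaling 1 member lay above (*Tcp1*) and 2 lay below (*Cct4* and *Cct8*) in both *Eef1g*-cKO libraries, where 24.6% and 37.7% of all tested genes did so.

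**Figure D2:**
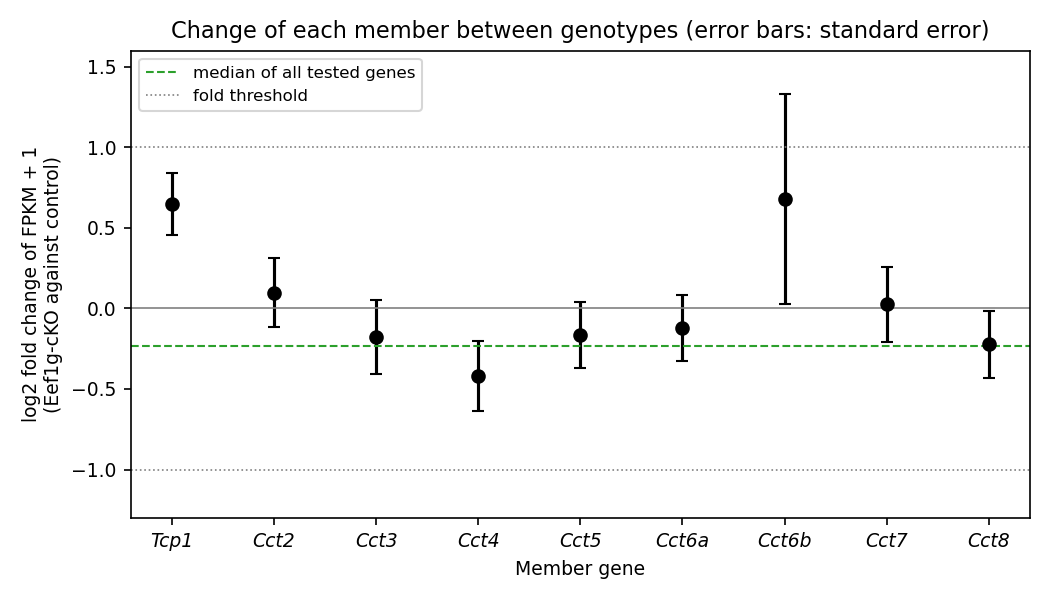
Log2 fold change of FPKM + 1 in *Eef1g*-cKO against control (vertical axis) for the 9 member genes (horizontal axis), with standard errors from limma as error bars. The dashed line is the median of all tested genes (−0.23), and dotted lines mark the fold threshold of 1 in each direction; *Tcp1* lies at 0.65 with a short error bar, *Cct6b* at 0.68 with a long one.

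The share of each subunit in the reads of the 8 genes depends neither on library depth nor on the scaling of the libraries. *Tcp1* took 10.1% and 9.23% of these reads in control, against 15.7% and 15.3% in *Eef1g*-cKO. The exact binomial 95% intervals were 9.59% to 10.6% and 8.66% to 9.83% in control, and 13.8% to 17.7% and 13.9% to 16.8% in *Eef1g*-cKO, so neither *Eef1g*-cKO interval met a control interval. *Cct4* went the other way, with 12.3% and 12.9% in control, against 9.79% and 9.43% in *Eef1g*-cKO, and its intervals were apart as well. *Cct2* lay above in both *Eef1g*-cKO libraries and *Cct3*, *Cct5* and *Cct8* below, by 0.890 to 1.69 percentage points in the mean. For each of them intervals of the genotypes met, though not in every pair of libraries for *Cct3* and *Cct8*. *Cct6a* and *Cct7* overlapped. Shares sum to 100%, so a gain of one subunit lowers the others. They were not tested: an exact permutation test of 2 libraries against 2 cannot pass, and no test of another kind was made.

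**Figure D3:**
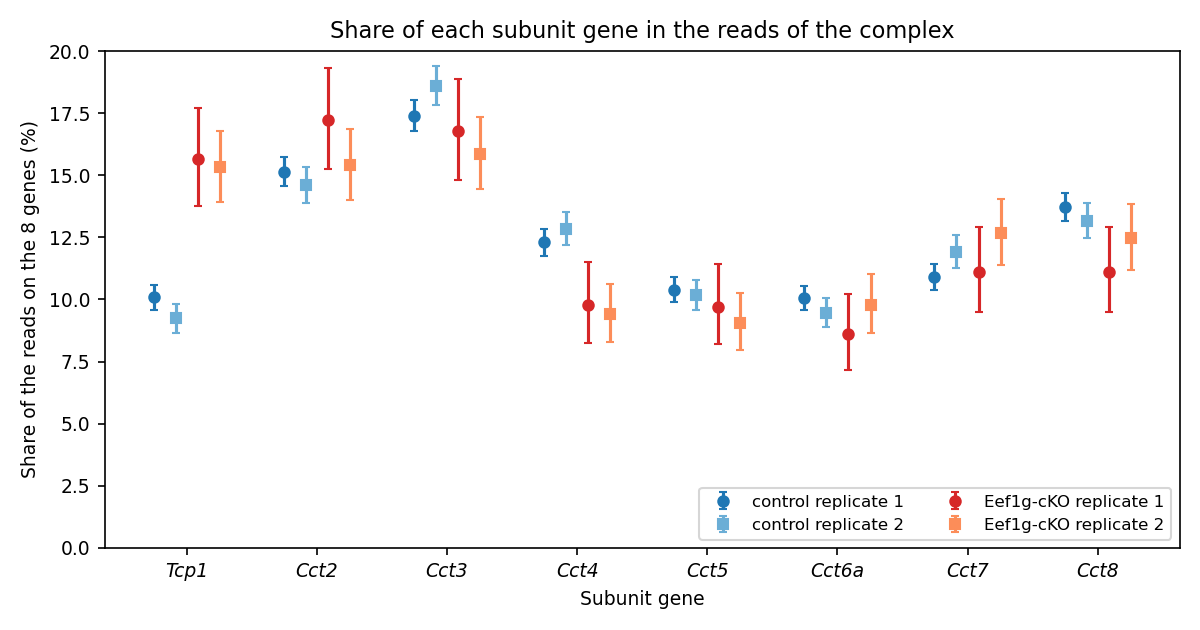
Share of the reads on the 8 ring subunit genes (vertical axis, percent) that fell on each gene (horizontal axis) in each library, with exact binomial 95% intervals as error bars. *Tcp1* moves from 10.1% and 9.23% in control to 15.7% and 15.3% in *Eef1g*-cKO, and *Cct4* from 12.3% and 12.9% to 9.79% and 9.43%.

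Within a library the levels of the 8 genes were spread per kilobase of deposited gene length. The highest exceeded the lowest 2.20 times in control replicate 1 (exact 95% interval 2.06 to 2.35) and 2.57 times in control replicate 2 (2.37 to 2.79). In *Eef1g*-cKO the ratio was 2.21 (1.77 to 2.79) in replicate 1 and 1.80 (1.53 to 2.12) in replicate 2. The coefficient of variation over the 8 genes was 28.1% and 31.3% in control, against 31.2% and 23.6% in *Eef1g*-cKO. The intervals are for a pair picked after ranking, so they do not test whether levels were equal. The genotypes overlapped in the coefficient of variation.

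The order of the subunits was close within control and shifted between genotypes. In control the order by mean FPKM was *Cct3* (578 ± 106), *Cct2* (474 ± 52.9), *Cct4* (401 ± 67.7), *Cct5* (363 ± 44.7), *Cct8* (351 ± 38.4), *Cct7* (293 ± 58.3), *Cct6a* (280 ± 26.6) and *Tcp1* (241 ± 18.2; SD, n = 2 each). For 1 of the 7 neighbouring pairs, *Cct6a* and *Tcp1*, the lower library of the first gene exceeded the higher library of the next. Within single libraries, the exact 95% intervals of the ratio lay above 1 in both control libraries for *Cct3* over *Cct2* and for *Cct2* over *Cct4*. In *Eef1g*-cKO the order was *Cct3* (508 ± 18.1), *Cct2* (506 ± 37.4), *Tcp1* (378 ± 4.24), *Cct5* (323 ± 14.2), *Cct8* (300.4 ± 26.0), *Cct4* (298 ± 6.47), *Cct7* (295 ± 28.9) and *Cct6a* (258 ± 24.6; SD, n = 2 each). By the same comparison across libraries 2 of 7 pairs were separate, *Cct2* from *Tcp1* and *Tcp1* from *Cct5*. Within *Eef1g*-cKO replicate 1, however, the ratio of *Tcp1* to *Cct5* was 1.14 with an interval of 0.915 to 1.43, so that place of *Tcp1* was within counting error. Of the 7 neighbours in each library, 3 and 1 in control and 6 and 5 in the *Eef1g*-cKO libraries had intervals that held 1. *Tcp1* was thus the lowest of the 8 in both control libraries and the third in both *Eef1g*-cKO libraries. Against the median of the other 7 genes its level was 0.687 and 0.643 in control, against 1.26 and 1.19 in *Eef1g*-cKO.

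Ribosomes cover the coding sequence, while the deposited length also counts untranslated exon sequence. The coding part made up 66.7% (*Cct7*) to 91.9% (*Cct5*) of the deposited length, with 66.9% in *Tcp1*. Per kilobase of coding sequence the highest over the lowest was 1.76 and 2.06 in control, against 1.82 and 1.73 in *Eef1g*-cKO. By value *Tcp1* was again the lowest of 8 in both control libraries and the third in both *Eef1g*-cKO libraries. These places were partly within counting error. In control replicate 1 *Tcp1* was at 341 (exact 95% interval 323 to 359) and *Cct5* at 361 (343 to 380). In *Eef1g*-cKO replicate 2 *Tcp1* was at 560 (506 to 619) and *Cct2* at 585 (528 to 647), and the interval of *Cct7* (423 to 529) also met that of *Tcp1*. Intervals of *Tcp1* and *Cct5* met in control replicate 2 too (355 to 406 and 403 to 458). In *Eef1g*-cKO replicate 1 the interval of *Tcp1* (495 to 651) met those of *Cct2* (569 to 739) and *Cct3* (544 to 708). *Cct5* moved from the fourth place in both control libraries to the seventh.

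Shared sequence was taken into account next, because a fragment that fits several genes may have been dropped or split in counting. Among 30-base coding windows, 82.9% of *Cct3* and 87.7% of *Cct7* occurred in no transcript of another gene, 94.2% of *Cct4*, 97.3% of *Tcp1* and 99.7% of *Cct2*, and all windows of *Cct5*, *Cct6a* and *Cct8*. The other genes that shared windows included the pseudogenes *Cct3-ps1* and *Tcp1-ps1*. Per kilobase of coding sequence with such unique windows the highest over the lowest was 2.06 and 2.41 in control, against 2.11 and 2.09 in *Eef1g*-cKO. *Cct3* then led in all 4 libraries, and *Tcp1* was by value the eighth in control and the third in *Eef1g*-cKO. *Tcp1* was again within counting error of *Cct5* in control replicate 1 and of *Cct2* in both *Eef1g*-cKO libraries. Intervals of *Tcp1* and *Cct5* also met in control replicate 2 (390, 365 to 417, against 430, 403 to 458). In both *Eef1g*-cKO libraries the interval of *Tcp1* met that of *Cct7* below it. *Tcp1* and *Cct7* were at 585 (509 to 669) and 470 (398 to 551) in replicate 1. In replicate 2 they were at 576 (520 to 637) and 540 (482 to 603). Between any 2 of the 8 genes coding identity was 46.0% to 52.9% and the longest aligned run of equal bases was 17.

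**Figure D4:**
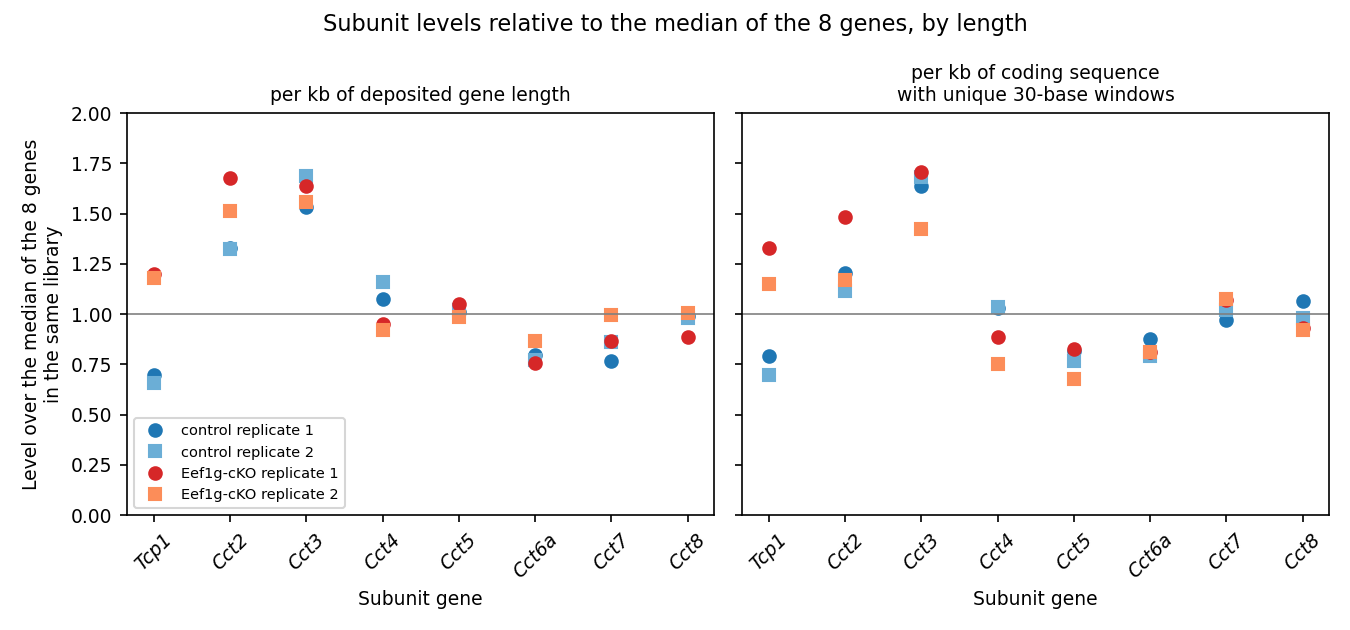
Level of each ring subunit gene (horizontal axis) divided by the median of the 8 genes in the same library (vertical axis), per kilobase of deposited gene length on the left and per kilobase of coding sequence with 30-base windows unique in the transcripts on the right. The control points of *Tcp1* lie below 1 and the *Eef1g*-cKO points above 1 on both sides.

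The annotation around *Tcp1* holds other genes that could share its reads. *Tcp1* lies on chromosome 17 from 12916329 to 12925067 on the plus strand (RefSeq, GRCm38.p6), with 12 coding exons. On the opposite strand *Mrpl18*, for a mitochondrial ribosomal protein, shares 235 exonic bases with it and *Acat3* shares 571, which is 9.40% and 22.8% of its exonic bases. Genes on the opposite strand also share 231 exonic bases with *Cct7* (9.42%), 191 with *Cct8* (7.99%) and 88 with *Cct6a* (4.05%). Whether the counting used the strand is not given in the sources used here, so reads in these stretches are uncertain. *Mrpl18* was at 25.7 and 43.7 FPKM in control and 27.9 and 30.7 FPKM in *Eef1g*-cKO, far below *Tcp1* and overlapping between genotypes. *Acat3* was not among the symbols of the deposited table. The part of these overlapping genes in the *Tcp1* result was not tested.

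A small nucleolar RNA inside *Tcp1* moved in the same direction. *Snora20* is 61 bases long and lies on the same strand in an intron, 125 bases from the nearest curated *Tcp1* exon, and shares 0 bases with its exons. Its reads were 849 and 132 in control, against 189 and 336 in *Eef1g*-cKO, or 5613, 1563, 13838 and 13501 FPKM. Each *Eef1g*-cKO library exceeded each control library. In limma the log2 fold change was 2.21 with a standard error of 0.66 and an adjusted p of 0.0899. The adjusted p was 0.000778 in edgeR, a call at a log2 fold change of 1.97, and 0.0945 in DESeq2 at 1.98. Control replicate 1 exceeded control replicate 2 in *Snora20* (5613 against 1563 FPKM) but not in *Tcp1* (228 against 254 FPKM). The part of *Snora20* in the *Tcp1* result was not tested. In *Cct6a*, the intronic *Snora15* had 12, 4, 0 and 0 reads.

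The promoter of *Tcp1* is shown as the upstream sequence of the subunit that stood apart, beside that of *Cct5*, whose level overlapped between genotypes. Each spans the annotated start and lies mostly upstream of it (RefSeq, GRCm38.p6), for *Tcp1* chr17:12916079-12916378 on the plus strand and for *Cct5* chr15:31601797-31602096 on the minus strand. Capitals mark the letters searched on both strands: a heat shock element core (TTCNNGAA or GAANNTTC), a CCAAT box (CCAAT or ATTGG) and a GC box (GGGCGG or CCGCCC).
Tcp1: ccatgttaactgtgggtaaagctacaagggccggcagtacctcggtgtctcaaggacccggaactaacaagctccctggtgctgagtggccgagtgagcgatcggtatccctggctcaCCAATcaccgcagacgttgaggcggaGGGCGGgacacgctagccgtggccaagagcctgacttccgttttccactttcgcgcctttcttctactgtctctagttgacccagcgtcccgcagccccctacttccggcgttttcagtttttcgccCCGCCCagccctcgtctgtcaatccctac
Cct5: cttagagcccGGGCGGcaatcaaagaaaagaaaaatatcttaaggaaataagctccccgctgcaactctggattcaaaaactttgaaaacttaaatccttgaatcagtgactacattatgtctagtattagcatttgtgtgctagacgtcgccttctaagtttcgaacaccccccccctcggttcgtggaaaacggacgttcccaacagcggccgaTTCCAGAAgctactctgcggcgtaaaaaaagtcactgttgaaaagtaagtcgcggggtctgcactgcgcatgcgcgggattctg

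Of the 9 members 8 had an entry, with 10 promoters in all, and *Cct4* had none. The heat shock element core was found in 3 of the 10, one each of *Cct2*, *Cct5* and *Cct6a*, against 15.1% of all 32851 promoters. *Tcp1* had no match to it. A CCAAT box was found in 5 of 10 (37.4% of all promoters), among them *Tcp1* at position −132 from the start, and a GC box in 8 of 10 (35.7%). A match is a description of letters, not of a bound site.

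The zeta position was carried by *Cct6a*. It was at 262 and 299 FPKM in control and 241 and 275 FPKM in *Eef1g*-cKO, and the genotypes overlapped. *Cct6b* was at 1.94 and 0.771 FPKM in control (9 and 2 reads) and 4.77 and 1.31 FPKM in *Eef1g*-cKO (2 and 1 reads). These reads are too few for a difference to be detectable: with the reads of each genotype pooled, the ratio of *Eef1g*-cKO to control was 1.67, with an exact 95% interval of 0.299 to 6.31. Per length *Cct6b* made up 0.735% and 0.257% of the zeta genes in control, against 1.94% and 0.473% in *Eef1g*-cKO. The exact binomial 95% intervals, 0.337% to 1.39%, 0.0312% to 0.926%, 0.237% to 6.82% and 0.0120% to 2.60%, overlapped throughout.

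Sequence shared by these paralogs was short. The coding sequences of *Cct6a* and *Cct6b* were 76.1% identical over 1467 aligned bases, the longest aligned run of equal bases was 20, and they shared 0 windows of 30 bases. The first 60 aligned coding bases are shown from GRCm38.p6, with the 22 differing bases in capitals to show where the paralogs differ.
Cct6a: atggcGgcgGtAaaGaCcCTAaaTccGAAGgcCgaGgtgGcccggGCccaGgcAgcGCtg
Cct6b: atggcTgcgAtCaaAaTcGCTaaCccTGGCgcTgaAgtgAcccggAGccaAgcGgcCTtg

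*Cct6a* lies on chromosome 5 (129787356 to 129846443, plus strand) and *Cct6b* on chromosome 11 (82713112 to 82764388, minus strand). The *Cct6a* model of this build has a gap: its coding exons sum to 1467 bases against 1596 in *Cct6b*, and the deposited length of 2171 is close to the 2173 bases of its exons. Where reads from the missing stretch would align was not checked. By its size, the length behind the FPKM leaves that stretch out too.

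By the likeness of their values over the 4 libraries, 5 genes outside the members and lists were closest to the median profile of the ring subunits: *Ddx21*, *Ddb1*, *Commd1*, *Eif3g* and *Kars*, out of 740 genes whose mean reached 100 FPKM. The distance of log2(FPKM + 1), centred for each gene over the 4 libraries, was 0.04 to 0.11 for them. Among the subunits themselves it ran from 0.11 for *Cct5* to 0.32 for *Cct4*, and was 0.76 for *Tcp1*. *Ddx21*, an RNA helicase of the nucleolus, was at 139 and 169 FPKM in control and 137 and 146 FPKM in *Eef1g*-cKO.

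The genes that work with the chaperonin were described from 10 lists, with 90 of their 94 genes in the table and 85 tested. In all lists together 1 gene was increased and 13 were decreased by adjusted p in limma, of which 7 were tubulins, where 2.87% and 4.97% of all tested genes were called. Their median log2 fold change was −0.46, beside −0.23 over all tested genes. With library values of 3 reads or fewer set to 3 reads, the medians were −0.26 and 0.11. Without control replicate 1, and likewise without control replicate 2, limma made no call by adjusted p, in the lists or over all tested genes. Without *Eef1g*-cKO replicate 2 it called 20 list genes decreased by adjusted p, and 1432 of all tested genes. The untrended prior also left 0 called, and a pseudocount of 0.1 left 1 decreased. Over all tested genes limma called 301 increased and 521 decreased, and 521 and 383 with centred libraries.

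Prefoldin, which hands unfolded actin and tubulin to the chaperonin, had 0 of 6 genes called by limma and by DESeq2 and 1 by edgeR. Over all genes limma called 2.87% increased and 4.97% decreased by adjusted p, edgeR 8.75% and 11.2%, and DESeq2 4.35% and 3.96%. Of its 6 genes 2 had a higher and 4 a lower value, with a median log2 fold change of −0.20. *Pfdn2* was at 507 and 725 FPKM in control and 574 and 433 FPKM in *Eef1g*-cKO. *Pfdn5* was at 290.3 and 351 FPKM in control and 461 and 380 FPKM in *Eef1g*-cKO, both *Eef1g*-cKO libraries above. The 8 genes of the R2TP and prefoldin-like complex had a median of 0.07. They had 0 calls by adjusted p in limma, edgeR and DESeq2, the latter pair without *Uxt*, which had no adjusted p there. *Pdrg1* was at 67.6, 72.9, 58.1 and 57.8 FPKM and the ATPase gene *Ruvbl2* at 63.6, 78.9, 34.7 and 58.5 FPKM. At an unadjusted p under 0.05 limma called 0 genes of either list, against 7.32% increased and 16.3% decreased over all genes. The gene that edgeR called was *Vbp1*, at 35.5 and 35.2 FPKM in control and 75.3 and 65.8 FPKM in *Eef1g*-cKO. Its adjusted p was 0.0149 in edgeR at a log2 fold change of 1.06, 0.0523 in limma at 0.97 and 0.0672 in DESeq2 at 1.05.

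Of the 4 phosducin-like and thioredoxin cofactors, which bind the chaperonin and adjust its cycle, 1 was decreased by adjusted p in limma, against 4.97% of all tested genes. *Pdcl3* fell from 31.2 and 37.3 FPKM in control to 7.85 and 10.1 FPKM in *Eef1g*-cKO, with both libraries of the latter lower. Its log2 fold change was −1.83 (standard error 0.30, limma adjusted p = 0.0344), on 3 and 7 reads in *Eef1g*-cKO. The adjusted p was 0.0105 in edgeR, while DESeq2 did not call it (adjusted p = 0.0562). *Pdcl* was at 13.4, 13.6, 20.3 and 13.7 FPKM. The median of the list was −0.54, and −0.09 with low values at 3 reads.

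Tubulins are its classical clients. Of 18 tubulin genes 16 were in the table and 13 were tested, and 7 were decreased and 0 increased by adjusted p, against 4.97% and 2.87% of all tested genes. The median log2 fold change was −1.68 (−0.59 with low values at 3 reads). All 13 values were below 0 in limma without centring, but *Tube1* and *Tuba1b* had higher mean FPKM in *Eef1g*-cKO, and *Tuba1b* and *Tubd1* lay above the median of all tested genes. *Tuba3a* fell from 549 and 855 FPKM to 157 and 162 FPKM and *Tubb4b* from 306 and 563 FPKM to 94.9 and 84.3 FPKM. *Tubb5* fell from 234 and 260 FPKM to 22.0 and 53.7 FPKM, with a log2 fold change of −2.81 in limma (adjusted p = 0.0307). Both *Eef1g*-cKO libraries lay below both control libraries for these 3. *Tubg1*, the gamma-tubulin of microtubule nucleation, fell from 25.8 and 56.6 FPKM to 2.78 and 7.62 FPKM on 1 and 5 reads. *Tubb2a* had 17 and 31 reads in control, against 0 and 0 in *Eef1g*-cKO, and its mean in control was at least 1.41-fold higher than 3 reads per *Eef1g*-cKO library would give. Without either control library, with the untrended prior or with a pseudocount of 0.1, limma called no tubulin by adjusted p. With the untrended prior it called 0 of all tested genes. By adjusted p edgeR called 6 tubulins decreased and DESeq2 5, against 11.2% and 3.96% over all genes. With the replicate block limma called 8 decreased, against 822 of all tested genes. Tubulin genes resemble one another closely, and *Tuba3a* and *Tuba3b* are nearly identical, so reads may have been lost or split among paralogs and single tubulin values are uncertain.

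Of 8 actin and actin-related genes 7 were in the table and 5 were tested, with 1 decreased by adjusted p in limma, against 4.97% of all tested genes, and a median log2 fold change of −0.92 (−0.87 with low values at 3 reads). *Actb* fell from 572 and 789 FPKM in control to 184 and 208 FPKM in *Eef1g*-cKO. Its log2 fold change was −1.77 (standard error 0.24, limma adjusted p = 0.0296). The dynactin gene *Actr1a* was at 34.3, 18.7, 40.7 and 55.4 FPKM and did not pass. Actin paralogs may share reads, so these values are uncertain too.

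Among 19 WD40 and other clients 16 values were below and 3 above 0, with a median log2 fold change of −0.95 (−0.64 with low values at 3 reads) and 1 decreased by adjusted p in limma, against 4.97% of all tested genes. By adjusted p edgeR called 4 decreased and DESeq2 3, against 11.2% and 3.96% over all genes. The mitotic kinase gene *Plk1* fell from 86.4 and 137 FPKM to 42.6 and 43.4 FPKM. *Cdc20*, the activator of the anaphase-promoting complex and a known client, was at 218 and 371 FPKM in control and 270 and 223 FPKM in *Eef1g*-cKO and overlapped. At an unadjusted p 7 of the 19 genes were decreased, against 16.3% of all tested genes. The levels of spermatogonial markers (1643 and 1867 against 352 and 314 FPKM) and Sertoli markers (559 and 136 against 134 and 85.5 FPKM) moved in the same direction as tubulins, actin and these clients, and their part in these results was not tested.

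The tubulin folding cofactors, which take tubulin on from the chaperonin, had 1 higher and 5 lower values, with 0 increased and 1 decreased by adjusted p in limma, against 2.87% and 4.97% of all tested genes. *Tbcb*, which binds alpha-tubulin, fell from 170 and 193 FPKM to 30.5 and 37.6 FPKM, with a log2 fold change of −2.38 in limma (adjusted p = 0.0212). *Tbca*, which binds beta-tubulin, was at 166 and 283 FPKM in control and 320 and 370 FPKM in *Eef1g*-cKO, with both *Eef1g*-cKO libraries above and no call (limma adjusted p = 0.197). The median of the list was −0.72.

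Of the partner chaperones of the HSP70 and HSP90 families 19 of 20 genes were in the table, with 1 of 19 increased and 1 of 19 decreased by adjusted p in limma, against 2.87% and 4.97% of all tested genes, and a median log2 fold change of −0.07. *Hspa4l*, an HSP110-type exchange factor known from testis, rose from 45.6 and 43.4 FPKM to 107 and 99.2 FPKM, with a log2 fold change of 1.19 in limma (adjusted p = 0.0354). *Hsp90ab1*, for the constitutive cytosolic HSP90, fell from 1195 and 1342 FPKM to 454 and 569 FPKM (log2 fold change −1.31, standard error 0.24, limma adjusted p = 0.0379). *Stip1*, the adaptor between HSP70 and HSP90, was at 215 and 201 FPKM in control and 212 and 227 FPKM in *Eef1g*-cKO and overlapped.

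Other chaperonins were set beside TRiC/CCT. The mitochondrial pair split: *Hspe1*, for the HSP10 lid, fell from 211 and 230 FPKM to 52.3 and 31.9 FPKM (log2 fold change −2.40, standard error 0.28, limma adjusted p = 0.0249), while *Hspd1*, for the HSP60 ring, was at 26.5 and 37.8 FPKM in control and 23.0 and 30.5 FPKM in *Eef1g*-cKO and overlapped. The 3 chaperonin-like BBS genes, whose products help to assemble a complex of the cilium, were low. By adjusted p limma called 0 of them, against 2.87% increased and 4.97% decreased over all tested genes. *Bbs10* was decreased by unadjusted p in limma on 0 reads in *Eef1g*-cKO, where 16.3% of all tested genes were decreased. In edgeR only *Mkks* was tested, with 0 calls, and DESeq2 gave none of the 3 an adjusted p and called 0 by unadjusted p. *Mkks* was at 4.29, 7.69, 4.19 and 3.07 FPKM and *Bbs12* at 2.15, 2.08, 1.84 and 4.03 FPKM. Their median was −0.56, and 0.22 with low values at 3 reads.

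**Figure D5:**
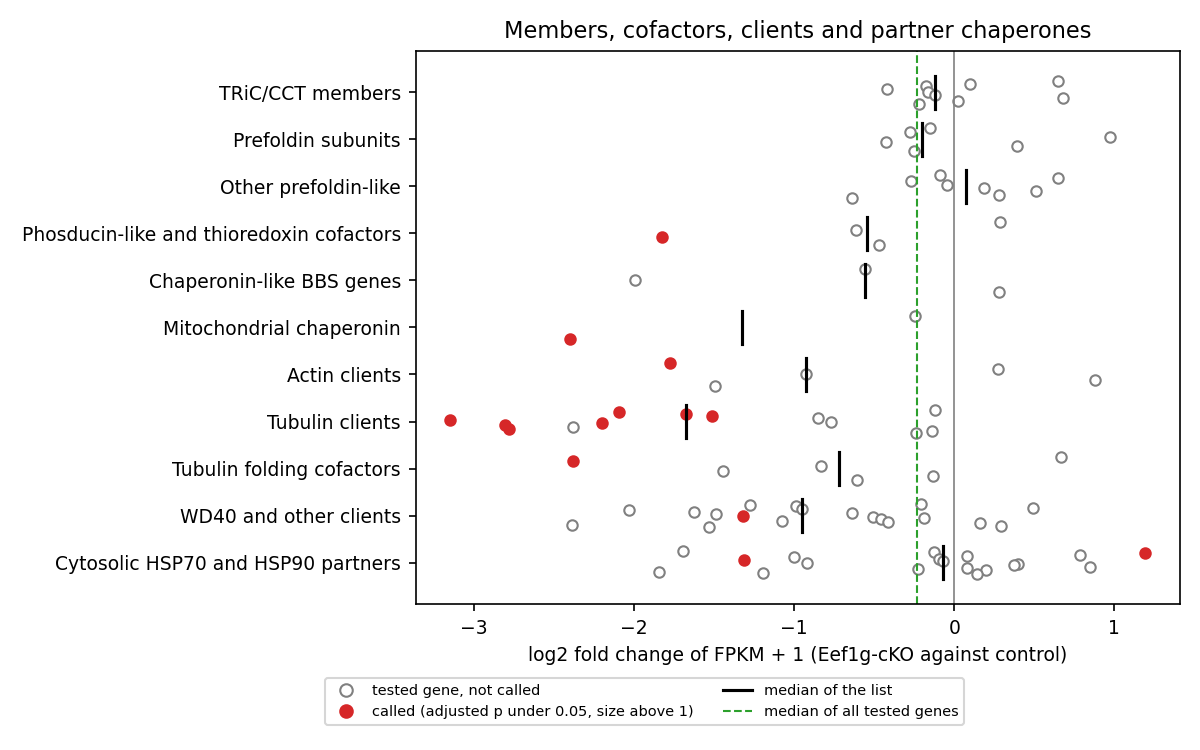
Log2 fold change of FPKM + 1 in *Eef1g*-cKO against control (horizontal axis) for the tested genes of the chaperonin and of the 10 lists (vertical axis); filled points passed an adjusted p under 0.05 with a size above 1, short black lines are list medians and the dashed line is the median of all tested genes. Members of the chaperonin lie between −0.42 and 0.68, while *Tubb5*, the lowest tubulin with reads in both *Eef1g*-cKO libraries, lies at −2.81; *Tubb2a*, drawn lower, had 0 reads there, so its place depends on the pseudocount.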

How the data were processed

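RPFs were measured in 2 control and 2 *Eef1g*-cKO libraries, grouped by their labels. FPKM values were computed and deposited by the authors per gene length and 1000000 reads counted on genes. A deposited signal, reads divided by a size factor per library, gave back whole reads for 100% of values (tolerance 1e-06). The deposited gene length was used as given, in a column of the other kind. The submitters' processing notes name cutadapt, Bowtie and STAR with the builds mm10 and hg38; aligner settings and the counter for Ribo-seq are not given in the sources used here. The authors' own comparison columns (fold changes, errors, p-values) were not used.

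Median reads per gene were 60 and 34 in control, against 5 and 8 in *Eef1g*-cKO, and depth differed 6.11-fold in the mean. limma 3.58.1 (R 4.3.3) with a trended prior was fitted to log2(FPKM + 1) of the 10475 genes whose mean reached 1 FPKM or more. A fold change on this scale understates that of low genes. As alternatives, edgeR 4.0.16 (TMM, quasi-likelihood) on the reads called 705 genes increased and 904 decreased, and DESeq2 1.42.0 called 505 and 459. Other pseudocounts, filters, scalings, priors, the replicate block and leaving out each library were also tried, and models were tested on simulated data. Coding sequences and windows came from RefSeq GRCm38.p6 and transcripts from GENCODE M21, with Python 3.11.15, numpy 2.4.6, scipy 1.17.1 and biopython 1.88; the build may differ from the authors' in its annotation.

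Members and lists were chosen with earlier results of these data known. Named genes were all members, the 2 most abundant genes of each list, up to 4 called genes per list and direction, *Eef1g* and the 5 genes closest to the median subunit profile with a mean of at least 100 FPKM. *Snora20*, *Snora15* and *Mrpl18* were added for their position, and *Bbs10* and *Vbp1* as lone calls of their lists, and *Tube1*, *Tuba1b*, *Tubd1* and *Uxt* as exceptions, after values were seen.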

Additional observations from a re-analysis of the deposited data

How the results depend on the processing

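The 9 members gave 0 calls in either direction, by adjusted and by unadjusted p, under the main setting and all 14 alternatives, except that *Cct6b* was not tested in edgeR and with the filter at 5 FPKM and had no adjusted p in DESeq2. *Tcp1* stayed uncalled with a log2 fold change of 0.57 to 0.73 when one library was left out; where a genotype had 1 library, it was assumed to vary like the other genotype.

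Counts over the 10 lists moved most. Decreased genes by adjusted p were 13, against 1 with a pseudocount of 0.1, 0 with the untrended prior and 0 to 20 with one library left out; by unadjusted p they were 25, against 11 to 30. Increased genes by adjusted p were 1, against 0 with a pseudocount of 0.1 and with the untrended prior, 2 with centred libraries and in edgeR, and 0 to 1 with one library left out; by unadjusted p they were 1, against 3 with centred libraries, 3 in edgeR, 2 in DESeq2 and 2 to 3 with one library left out. The cause was not tested.

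The log2 ratio of the summed level, −0.06, was 0.16 with centred libraries over the 8 subunits and over all members, and −0.19 to 0.0923 over the 8 subunits and −0.19 to 0.0928 over all members with one library left out. The mean ratio of highest to lowest subunit in control, 2.39, was 1.91 per coding length, and the coefficient of variation, 29.7%, was 22.4%; the lengths themselves differ. Windows unique in the genome, an alternative chosen after seeing the data, moved neither measure by more than the spread between replicates.

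The labels number replicates 1 and 2 in both genotypes. With the replicate block in limma 0 members were called and 17 list genes were decreased and 1 increased. Over all genes 822 were decreased and 424 increased, against 521 and 301 without it. The correlation of same-numbered deviations over all genes was −0.01. With 2 libraries per genotype and few reads per gene in *Eef1g*-cKO, this value cannot decide whether same-numbered libraries were paired. Depth limits *Cct6b* and the *Eef1g*-cKO values.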
